A study of Mus musculus with 2 samples.

Results

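The Notch pathway was followed through 37 genes that encode its ligands, receptors, processing enzymes, nuclear complex, target genes and modulators. They were chosen by gene symbol from the known roles of their products, with no threshold on their levels, and all 37 were found among the 43346 mouse gene rows of the tables. The tissue was limb of mouse embryos at 15.5 days after conception, strain B6NCrl, in 1 group with no treatment, mutation or control. RNA longer than 200 nt was sequenced from 2 biological replicates, which were pools of male and female embryos, 78 in replicate 1 and 62 in replicate 2. Each library was made from 10 ng of RNA with a spike-in set. Which limbs went into the pools, fore or hind, is not labelled, and the levels are averages over all cells of the dissected tissue.

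In Notch signalling, a Delta or Jagged ligand on one cell binds a Notch receptor on its neighbour, and endocytosis of the ligand pulls on the receptor. An ADAM protease and then gamma-secretase cut the receptor, and its freed intracellular domain enters the nucleus. There it joins the DNA-binding protein RBPJ and a Mastermind coactivator to switch on genes of the Hes and Hey families. In the limb the pathway is known for roles in growth of the digits and skin ridge, in cartilage maturation, in muscle progenitors, in hair follicles and in the wall of blood vessels.

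Nearly the whole pathway was expressed in the limb. Levels are given as TPM, a share of all transcripts that is scaled by transcript length and so allows comparison between genes. At 1 TPM or more in both libraries stood 34 of the 37 members, beside 34.6% of all genes, and 23 members stood at 10 TPM or more, beside 21.3% of all genes. The rows for all genes include noncoding genes, whereas every member is protein-coding, so these shares are not of like genes. Dtx3 and Psenen were the highest, and Hes5, Hes7 and Dll3 were the lowest. The median member, taken over the mean of the 2 libraries, had 14.07 TPM. Among genes with a mean of at least 1 TPM the median was 14.23 TPM for members and 15.77 for all. Sorted by mean level, the members form 36 neighbouring pairs, and in 19 of them the ranges of the 2 libraries overlapped, so the order within those pairs is not resolved.

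Expected counts, the authors' estimated reads per gene, summed to 35104685 in replicate 1 and 41757268 in replicate 2. Every member had at least 12 counts in each library, and the highest had 9455. In bulk tissue, fewer cells of a type and less RNA per cell cannot be told apart. With 1 library per pool and no second group, no test was made and no p-value is given. The mean ± SD (n = 2) describes the spread between the pools.

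**Figure D1:**
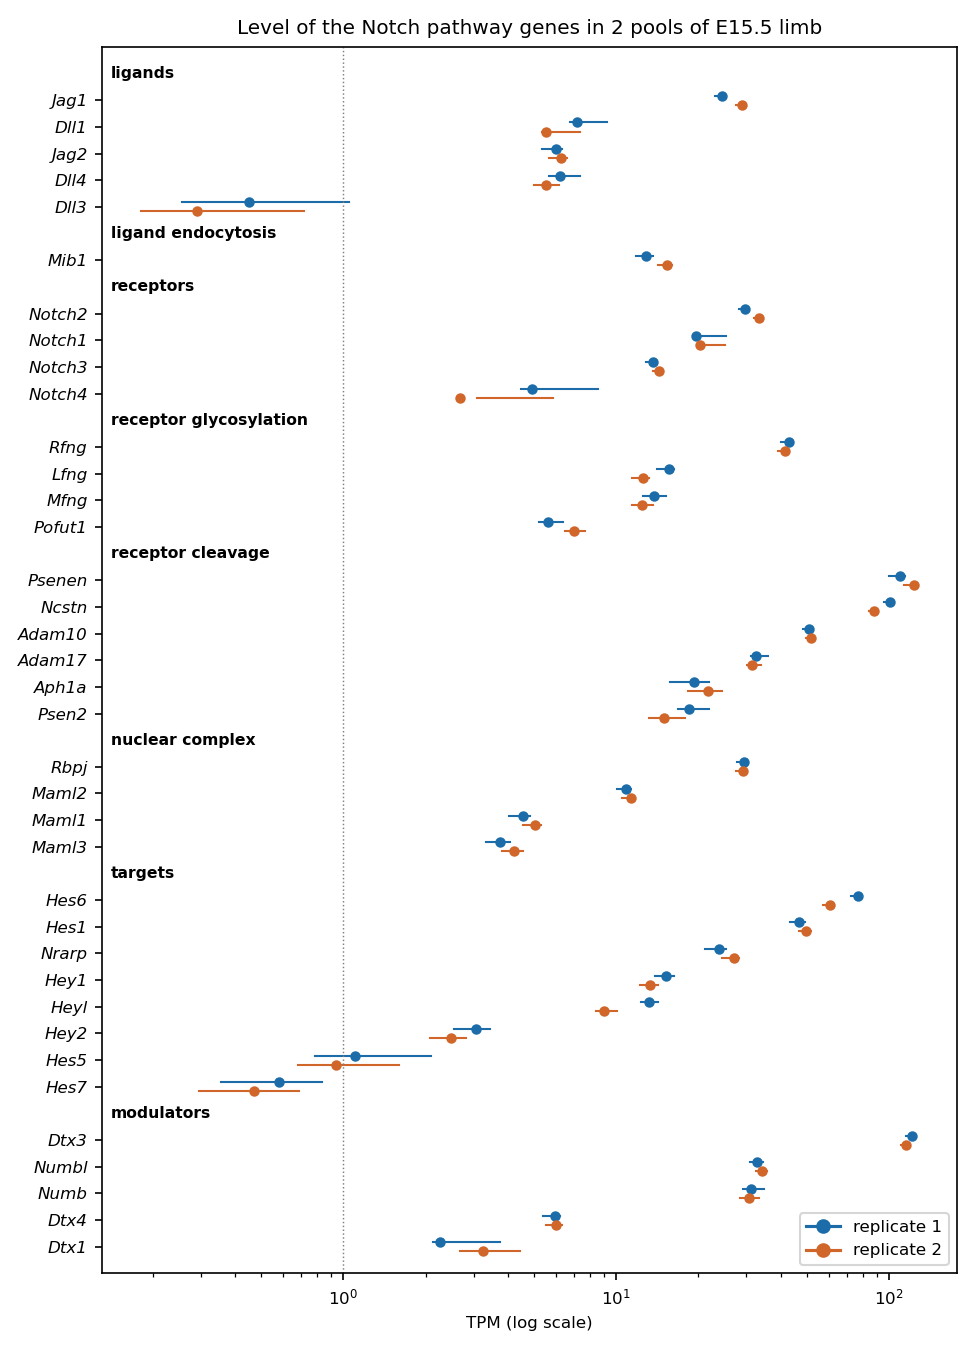
TPM (log scale) of the 37 Notch pathway genes in replicate 1 (blue) and replicate 2 (orange), grouped by role; points are the deposited values, lines their deposited intervals and the dotted line 1 TPM. Levels run from 0.29 TPM for Dll3 to 123.4 TPM for Psenen, both in replicate 2.

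Among the ligands, Jag1 was the highest. Jag1 (ENSMUSG00000027276.7, chr2:137081456-137116644, minus strand, GRCm38) encodes a transmembrane Jagged ligand with 24.43 TPM in replicate 1 and 29.02 in replicate 2. Jag2, the other Jagged ligand, had 6.01 and 6.27 TPM, so that Jag1 was 4.06-fold higher in replicate 1 and 4.63-fold in replicate 2. Folds between genes are otherwise given as the geometric mean of both libraries after 0.1 TPM was added to each gene or sum, which lowers the folds of weakly expressed genes; for Jag1 over Jag2 that fold was 4.28. Both libraries placed Jag1 well above every other ligand, and it held 55.2% and 62.18% of the summed ligand TPM.

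The Delta-like ligands were lower. Dll1, the Delta ligand known from somites and muscle, had 7.16 and 5.55 TPM. Dll4, the Delta ligand of arterial and sprouting endothelium, had 6.21 and 5.54 TPM. Dll1, Jag2 and Dll4 could not be ordered, because the ranges of their 2 libraries overlapped. Dll3, a ligand known to act within the cell that makes it rather than to activate receptors on neighbours, had 0.45 and 0.29 TPM, from 12 and 14 counts. The 2 Jagged genes together exceeded the 3 Delta-like genes 2.19-fold in replicate 1 and 3.08-fold in replicate 2.

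Mib1, the ubiquitin ligase that drives endocytosis of ligands, had 12.84 and 15.31 TPM. Its level lay between Jag1 and the other ligands in both libraries. The model Mib1-204, with a coding sequence of 794 bases, took 66.98% and 64.34% of its TPM. That length is not a whole number of codons, so the annotated coding sequence of Mib1-204 is incomplete. The model with the longest coding sequence, Mib1-201 with 3018 bases, took 32.4% and 34.23%. By expected counts, which are not divided by length, Mib1-201 led instead, with 941.43 and 1448.69 counts against 502.89 and 703.9 for Mib1-204.

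All 4 receptor genes were expressed, in the order Notch2, Notch1, Notch3 and Notch4. Notch2 (ENSMUSG00000027878.10, chr3:98013527-98150361, plus strand) had 29.71 and 33.32 TPM and held 45.47% ± 2.39 (SD, n = 2) of the summed receptor TPM. Notch1 (ENSMUSG00000026923.11, chr2:26457903-26516663, minus strand) had 19.55 and 20.27 TPM and held 28.75% ± 0.0869. Both are broadly expressed receptors, and Notch2 was 1.58-fold above Notch1, a log2 ratio of 0.66. The gene TPM of Notch1 lay below its own deposited interval in both libraries, 20.26 to 25.19 TPM in replicate 1 and 20.36 to 25.12 in replicate 2, and that of Notch2 lay just above its intervals, which ended at 29.64 and 33.28 TPM. With the authors' posterior mean TPM, 22.59 and 22.66 for Notch1 and 28.96 and 32.63 for Notch2, the order was kept and the log2 ratio was 0.44. Notch3, known as the receptor of pericytes and arterial smooth muscle, had 13.69 and 14.39 TPM and held 20.27% ± 0.135. The ranges of the 2 libraries did not overlap between any of these 3 receptors.

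Notch4, known mainly from endothelium, stood at 4.9 TPM in replicate 1 and at 2.67 in replicate 2. Its expected counts were close, 283 in replicate 1 and 300 in replicate 2. The only model annotated as protein-coding, Notch4-201 (6591 nt), had 1.81 and 1.61 TPM and took 92.4% and 95% of the gene's counts. The other 11 annotated Notch4 models took 21.42 and 14.87 counts. Because the models with more than 1 count among them are only 352 to 642 nt long, those few counts came to 3.09 and 1.06 TPM. Gene TPM for Notch4 thus combines the coding model with short models that rest on few reads. Like that of Notch1, the gene TPM in replicate 2 lay below its own deposited interval of 3.088 to 5.866 TPM.

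Summed over the family, the receptors had 69.25 ± 1.98 TPM and the 5 ligands 45.47 ± 1.7 TPM (SD, n = 2). The receptor sum was 1.52-fold the ligand sum, with 1.53 in replicate 1 and 1.51 in replicate 2. This ratio was nearly the same in both pools, whereas the makeup of the ligands shifted towards Jag1 in replicate 2.

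**Figure D2:**
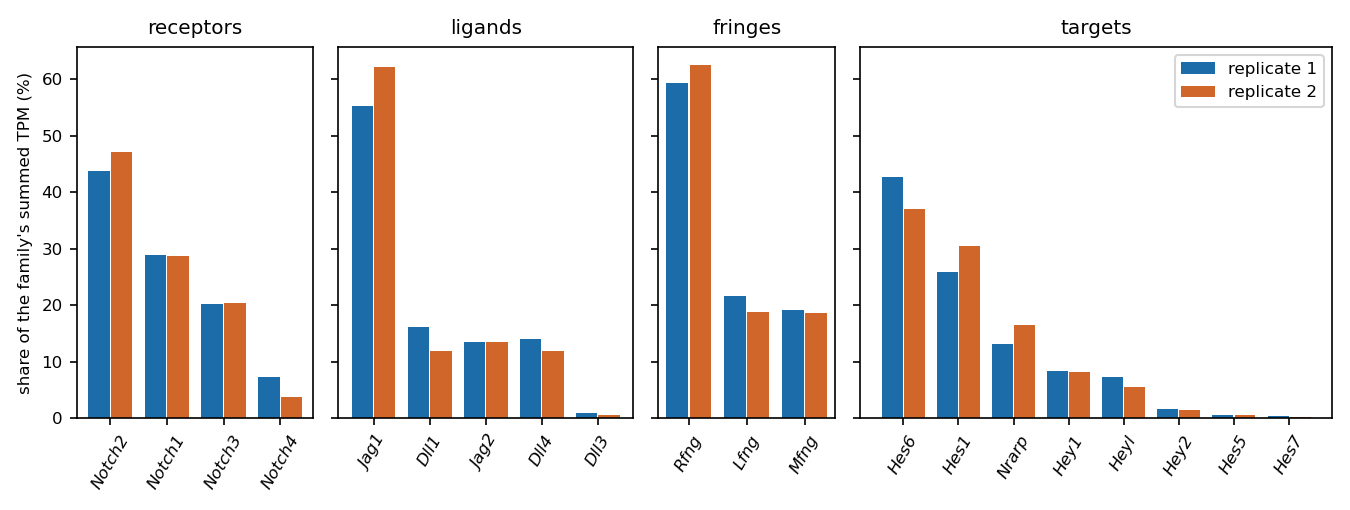
Share (%) of each family's summed TPM held by each receptor, ligand, Fringe and target gene in replicate 1 (blue) and replicate 2 (orange). Notch2 leads the receptors, Jag1 the ligands with 55.2% and 62.18%, Rfng the Fringes and Hes6 the targets with 42.65% and 37.07%.

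Sugars added to the receptor decide which ligands it answers to, and Rfng was the highest of the 4 members that add them. Pofut1, which adds the O-fucose that Fringe proteins extend, had 5.62 and 6.98 TPM. Of the Fringes, Rfng (Radical fringe) had 42.86 and 41.7 TPM and held 60.96% ± 2.26 of their sum (SD, n = 2). Lfng (Lunatic fringe) had 15.56 and 12.57 TPM, and Mfng (Manic fringe) 13.79 and 12.39 TPM. Rfng stood 3.01-fold above Lfng, whereas Lfng and Mfng could not be told apart. Not all Rfng reads were assigned to a coding form, since Rfng-202, a model not annotated as protein-coding, took 32.77% and 34.73% of its TPM. For Pofut1 the share of models that are not protein-coding was 38.97% and 37.25%.

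The 6 genes for receptor cleavage had the highest summed level of any role, with 331.6 TPM in each library. Adam10, the main protease of the outer cut, had 50.72 and 51.8 TPM. Adam17, a related protease, had 32.64 and 31.45 TPM, and Adam10 stood 1.60-fold above it. Both proteases were above every ligand and differed little between the pools. Of the gamma-secretase subunits, Psenen, which encodes the small subunit PEN-2, had 109.62 and 123.4 TPM. Ncstn, which encodes the substrate-binding subunit nicastrin, had 100.94 and 88.27 TPM. Psenen and Ncstn were not called apart, as their deposited intervals overlapped in replicate 1, though not in replicate 2. Aph1a, a scaffold subunit, had 19.2 and 21.68 TPM, and Psen2, a catalytic presenilin, had 18.49 and 15 TPM. Ncstn was 5.64-fold above Psen2.

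In the nuclear complex, the DNA-binding partner exceeded each coactivator. Rbpj (ENSMUSG00000039191.8, chr5:53466152-53657362, plus strand) had 29.49 and 29.11 TPM, one of the closest matches between pools in the pathway. Of the Mastermind coactivators, Maml2 had 10.89 and 11.28 TPM. Maml1 had 4.54 and 5.02 TPM, and Maml3 had 3.76 and 4.23 TPM. Maml2 was 2.29-fold above Maml1, and Maml1 and Maml3 were not apart. Rbpj stood 6.03-fold above Maml1.

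For Maml1 and Maml2 most reads went to a model other than the one with the longest coding sequence. Maml1-202, with 1753 coding bases against 3060 in Maml1-201, took 87.64% and 84.66% of the gene's TPM. The 1753 bases are not a whole number of codons, so the annotated coding sequence of Maml1-202 is incomplete and its full length is not known. Maml2-203, with 1242 coding bases against 3510 in Maml2-202, took 81.82% and 77.11%. Those coding bases are from GENCODE M21, in which Maml2-203 is 2264 nt long, whereas the model the authors assigned reads to was 4452 nt long, so its coding length there is not known. The deposited intervals of the short and long models did not overlap in either library: Maml1-202 spanned 3.35 to 4.36 TPM in replicate 1 and Maml1-201 0.274 to 0.925 TPM. Maml3 differed in that its longest coding model, Maml3-202 with 3405 bases, took the most TPM, with 52.39% and 47.99%. These shares come from short reads assigned to annotated models and do not show whole transcripts.

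The genes grouped here as targets covered a wide range, from Hes6 and Hes1 down to Hes5 and Hes7. Hes6 is counted among them, and whether Notch drives it or the others in this tissue was not tested. Hes6 (ENSMUSG00000067071.4, chr1:91411483-91414038, minus strand), a bHLH protein known to oppose Hes1 and to be expressed in differentiating muscle and nerve cells, had 77.05 and 60.58 TPM. Hes1 (ENSMUSG00000022528.7, chr16:30064384-30067796, plus strand), the most widely used Notch target and a bHLH repressor, had 46.74 and 49.77 TPM. By gene TPM Hes6 exceeded Hes1 1.42-fold, with no overlap of the libraries. Models not annotated as protein-coding took 12.27% and 16.02% of the Hes6 TPM. From coding models alone Hes6 had 67.58 and 50.88 TPM and Hes1 43.63 and 48.21 TPM. In replicate 2 the deposited intervals of these coding models overlapped, at 46.6 to 52.5 TPM for Hes6-201 and 45.0 to 49.3 TPM for Hes1-201. Nrarp, which encodes an ankyrin-repeat inhibitor that acts on the nuclear complex, had 23.75 and 26.91 TPM.

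The Hey repressors, known from vessels, heart and cartilage, were lower than Hes1. Hey1 had 15.21 and 13.26 TPM, and Heyl had 13.16 and 9.02 TPM. Hey1 and Heyl were not apart, as their deposited intervals overlapped in replicate 1. Hey2 had 3.05 and 2.48 TPM, and Hey1 was 5.02-fold above it. Hes5, a target known above all from neural progenitors, had 1.1 and 0.94 TPM from 29 and 30 counts. Hes7, the oscillating repressor of the presomitic mesoderm, had 0.58 and 0.47 TPM from 22 counts in each library. Hes1 was 42.5-fold above Hes5 in replicate 1 and 52.9-fold in replicate 2, or 43.3-fold on the scale with 0.1 TPM added.

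Markers of the tissues in which Hes5 and Hes7 are best known were also low. Of 10 neuron and neural progenitor markers 2 had a mean of at least 1 TPM, with Stmn2 the highest at 9.86 and 9.81 TPM, and Neurog2 and Sox1 were listed at 0 in both libraries. The neural list summed to 12.27 and 12.11 TPM. None of 6 presomitic mesoderm markers had a mean of at least 1 TPM, and they summed to 2.22 and 1.97 TPM, with Ripply1 the highest at 0.94 and 0.72 TPM and Ripply2 listed at 0. The part of these cell types in the levels of Hes5 and Hes7 was not tested.

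RBPJ is known to bind the letters TGGGAA, often within the longer GTGGGAA, so the bases before the start of each target gene were searched. The windows are the 250 bases upstream of the RefSeq start on GRCm38.p6, and both strands were read. TGGGAA was found in 21.6% of all 32851 windows, and GTGGGAA, which contains it, in 5.42%. The table has 38 windows for 30 members, some with several starts, and 10 of these windows held TGGGAA and 5 held GTGGGAA. The 5 belong to Hes5, Hes7, Hey2, Lfng and Psen2. Of the 8 targets, Hes5, Hes7 and Hey2 held GTGGGAA, Hes6 and Nrarp held neither, and Hes1, Hey1 and Heyl have no window in the table. The windows of the 3 with a match are shown to place the letters, beside that of Nrarp without one; capitals mark TGGGAA, or TTCCCA where it lies on the other strand.
Hes5, chr4:154960673-154960922, plus strand: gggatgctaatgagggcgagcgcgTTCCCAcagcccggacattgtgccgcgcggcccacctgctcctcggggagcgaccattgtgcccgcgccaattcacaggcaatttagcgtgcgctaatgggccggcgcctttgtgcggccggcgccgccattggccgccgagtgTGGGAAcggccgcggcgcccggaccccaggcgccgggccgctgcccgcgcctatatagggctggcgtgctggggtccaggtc
Hes7, chr11:69120203-69120452, plus strand: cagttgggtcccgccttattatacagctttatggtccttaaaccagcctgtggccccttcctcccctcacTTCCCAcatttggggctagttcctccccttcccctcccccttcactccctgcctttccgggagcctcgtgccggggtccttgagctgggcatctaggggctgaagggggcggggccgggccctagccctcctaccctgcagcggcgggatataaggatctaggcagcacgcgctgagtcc
Hey2, chr10:30842784-30843033, minus strand: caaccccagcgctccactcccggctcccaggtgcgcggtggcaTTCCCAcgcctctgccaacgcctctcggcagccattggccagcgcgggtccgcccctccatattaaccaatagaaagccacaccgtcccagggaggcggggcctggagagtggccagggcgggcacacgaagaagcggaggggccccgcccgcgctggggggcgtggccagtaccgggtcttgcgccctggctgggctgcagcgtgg
Nrarp, chr2:25180508-25180757, plus strand: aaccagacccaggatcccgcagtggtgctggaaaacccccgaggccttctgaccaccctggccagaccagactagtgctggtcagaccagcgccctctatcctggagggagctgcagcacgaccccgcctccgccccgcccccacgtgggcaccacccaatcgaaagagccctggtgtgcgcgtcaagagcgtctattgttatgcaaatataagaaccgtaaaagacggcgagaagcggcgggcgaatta

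In these windows the match lay 226 and 82 bases before the start of Hes5, 180 bases before that of Hes7 and 207 bases before that of Hey2. Lfng had TGGGAA 135 and 108 bases before its start. A match is only these letters and no binding was measured.

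Among the modulators, Dtx3 had the highest mean of all 37 members, with 121.73 and 115.34 TPM. It encodes a RING-finger protein of the Deltex family of ubiquitin ligases. Its relatives among the members were far lower. Dtx4 had 5.97 and 6.04 TPM and Dtx1, itself known as a Notch target in lymphocytes, had 2.26 and 3.26 TPM. Dtx2 and Dtx3l are relatives outside the members and are named here after their values were seen. Dtx2 had 29.08 and 29.28 TPM, between Dtx3 and Dtx4, and Dtx3l had 2.77 and 2.8 TPM. Dtx3 was 20.4-fold above Dtx4 in replicate 1 and 19.1-fold in replicate 2. No single model led Dtx3 clearly, since Dtx3-202 took 44.89% and 47.2% of its TPM and Dtx3-201 most of the remainder.

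Numb and Numbl, adaptor proteins that are known to promote removal of Notch receptors from the membrane, were expressed at nearly equal levels. Numb (ENSMUSG00000021224.10, chr12:83794034-83921934, minus strand) had 31.06 and 30.66 TPM, and Numbl had 32.91 and 34.3 TPM. They were not apart by their deposited intervals. Numb is known for 2 alternative exons, one that lengthens its phosphotyrosine-binding domain and one that lengthens its proline-rich region, and forms with the second are known from dividing progenitors. The exons, of 33 and 147 bases, are printed because the split of Numb reads turns on them; the sequence is from GENCODE M21 transcripts on GRCm38 and capitals are not used.
Numb 33-base exon, chr12:83825259-83825291, minus strand: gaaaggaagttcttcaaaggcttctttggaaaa
Numb 147-base exon, chr12:83797197-83797343, minus strand: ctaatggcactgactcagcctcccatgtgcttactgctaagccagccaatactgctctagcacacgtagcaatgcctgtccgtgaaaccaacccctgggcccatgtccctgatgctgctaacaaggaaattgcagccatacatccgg

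Most Numb reads were assigned to models without either exon. Numb-204, which lacks both, led with 55.07% and 51.16% of the gene's TPM. Models with the 33-base exon took 22.38% and 26.98% of the TPM of the 10 models that span its position. Much of that went to Numb-208, a model of 644 nt with an open end, on 75.15 and 91.5 counts. Models with the 147-base exon took 20.21% and 26.8% of the TPM of the 6 models spanning it, on 322.56 and 523.61 counts. All of those counts went to Numb-202 and Numb-203, which are annotated as targets of nonsense-mediated decay, and Numb-207, the coding model with the longest coding sequence, was listed at 0 in both libraries.

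Across the pathway the leading transcript was the same in both pools. Of the 27 members with a mean of at least 1 TPM and more than 1 annotated model, all 27 had the same leading model in both libraries, and it was protein-coding in each. In 16 of them it took over 80% of the gene's TPM in both libraries. The leading model had the longest coding sequence in 20 members and a shorter one in 7, which were Rbpj, Maml1, Maml2, Adam17, Aph1a, Numb and Mib1. For Rbpj the leading model Rbpj-203 has 1461 coding bases against 1578 in the longest. Lengths of the leading model were equal in GENCODE M4, used by the authors, and M21, used here for coding lengths, in 25 of the 27, with Rbpj-203 and Maml2-203 the exceptions.

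**Figure D3:**
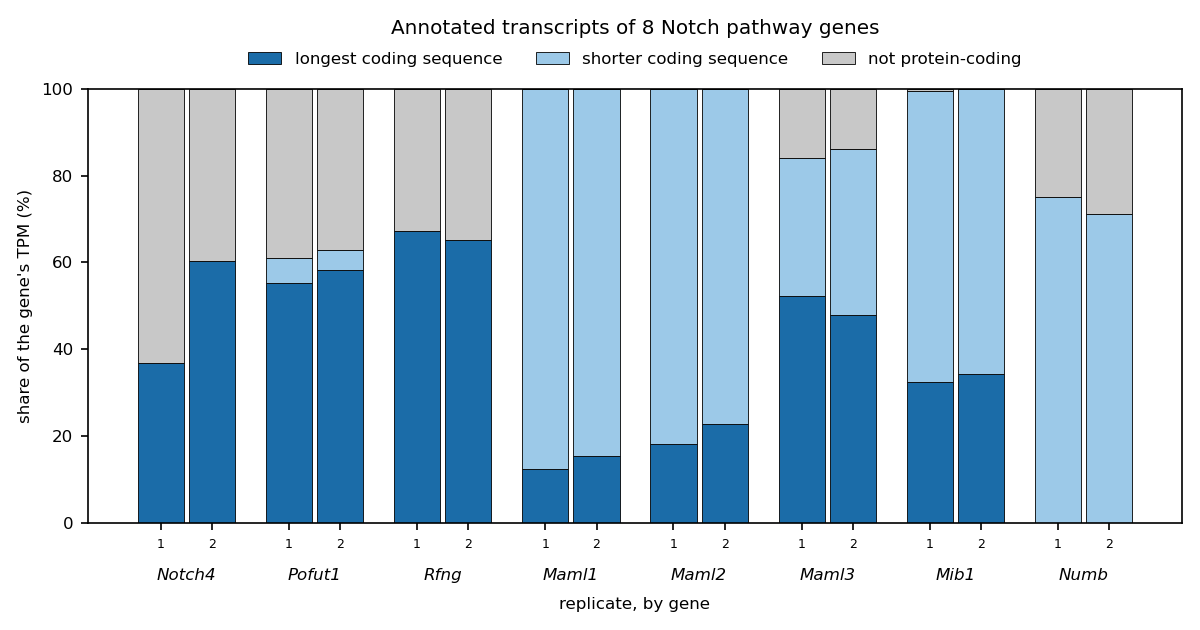
Share (%) of each gene's TPM assigned to the model with the longest coding sequence (dark blue), to other coding models (light blue) and to models not annotated as protein-coding (grey), in replicates 1 and 2. The longest coding form held 36.94% and 60.3% of Notch4, 12.36% and 15.34% of Maml1, and none of Numb.

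The 2 pools differed little over the pathway. Differences are given as log2 of replicate 2 over replicate 1 of TPM with 0.1 added, centred on the median gene, so a negative value is higher in replicate 1. None of the 35 members with a mean of at least 1 TPM was over 2-fold apart, beside 3.63% of the 15571 genes at that level. Higher in replicate 1 were 15 of them and higher in replicate 2 were 20, with a median of 0.04, against 0 for all genes by construction. The median absolute difference was 1.13-fold for members and 1.10-fold for all genes. Deposited intervals of the 2 libraries did not overlap for 8 members, which is 22.9% of those compared, near the 23.2% of all genes. The intervals cover counting and assignment of reads, not differences between embryos.

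Of those 8 members, Ncstn, Hes6, Lfng and Heyl were higher in replicate 1, a direction found for 13.6% of all genes, and Notch2, Jag1, Mib1 and Pofut1 were higher in replicate 2, found for 9.63%. Heyl, with 13.16 and 9.02 TPM, had the largest difference among them at -0.52. Jag1 differed by 0.27, Pofut1 by 0.33, Hes6 by -0.32 and Lfng by -0.28. Each of these differences was under the 2-fold mark in the plot of differences between the pools.

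Over 1.5-fold apart was only Notch4, at 1.78-fold or -0.83, beside 8.0% of all genes. From expected counts scaled by edgeR's TMM the Notch4 difference was -0.18, and from coding models alone -0.13. Dtx1 was next, at 0.53 from TPM and 0.34 from counts. For Psen2 the difference was -0.28 from TPM, -0.45 from counts and -0.54 from coding models. The sign of the difference depended on such choices for Notch1, Dll3, Rfng, Rbpj and Numb, and was kept by the other 32 members over the 8 alternatives tried.

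By role, 6 of the 8 targets were higher in replicate 1, among them Hes7 at under 1 TPM, and Hes1 and Nrarp were higher in replicate 2. All 4 genes of the nuclear complex were higher in replicate 2, by 0.0046 to 0.189, and for Rbpj the sign depended on the scaling. The summed target TPM was 180.6 in replicate 1 and 163.4 in replicate 2. Hes6 alone, with 77.05 and 60.58 TPM, held 42.65% and 37.07% of that sum, the largest share in both libraries.

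**Figure D4:**
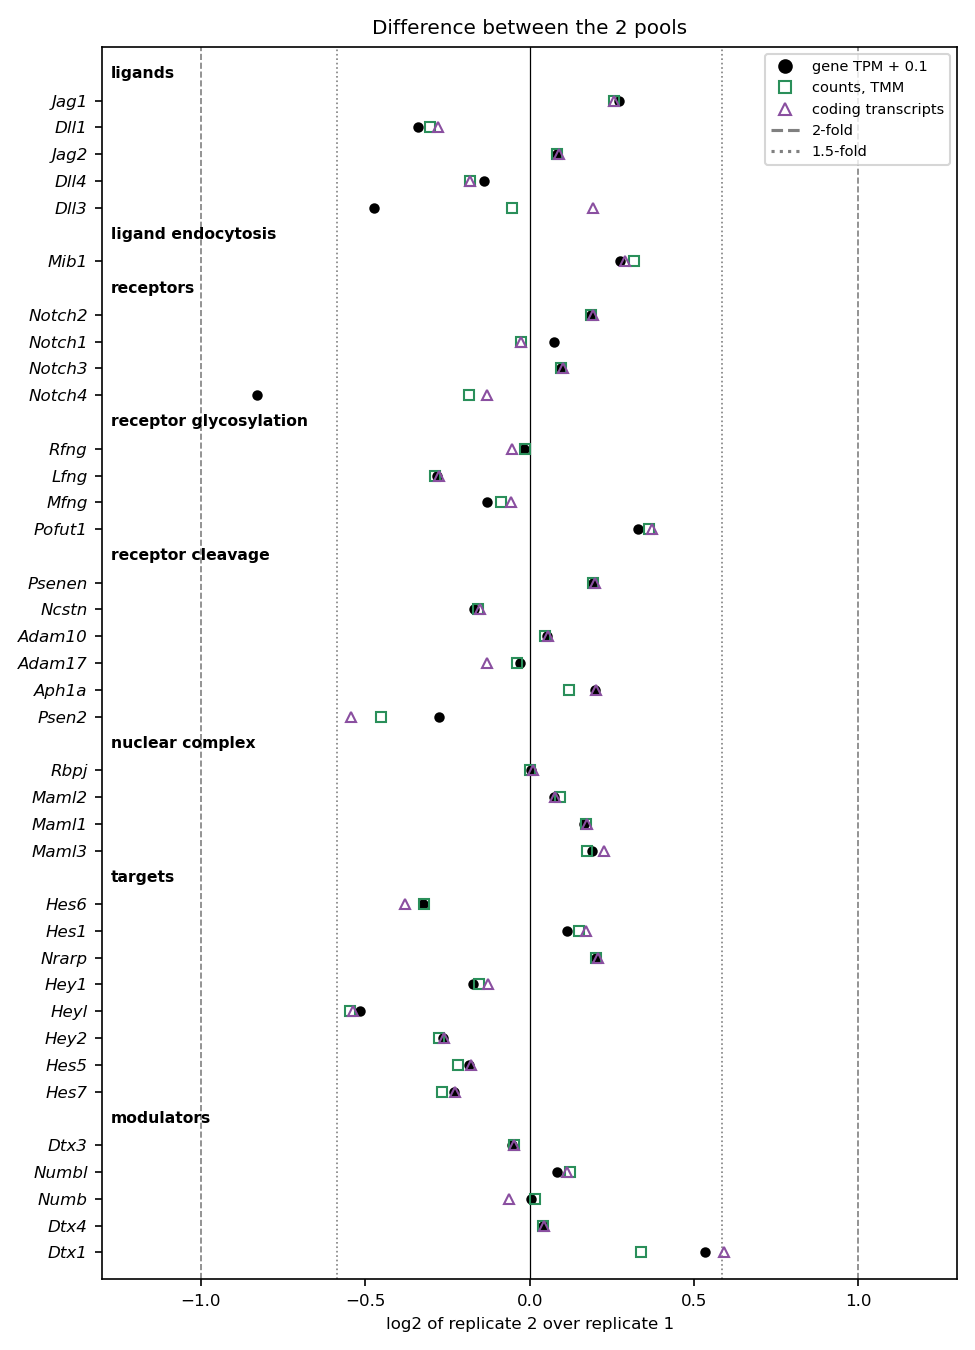
Log2 of replicate 2 over replicate 1 for each member by role, from gene TPM + 0.1 (black circles), from counts scaled by TMM (green squares) and from protein-coding models alone (purple triangles); dashed lines mark 2-fold and dotted lines 1.5-fold. No member reaches 2-fold, and Notch4 lies at -0.83 from gene TPM but at -0.18 and -0.13 by the other measures.

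Cell type markers were read beside the members, because several members are known from particular cells. As to the tissue label, all 8 limb mesenchyme markers had a mean of at least 1 TPM, and Msx1, a homeobox gene, was the highest of them at 130.69 and 112.58 TPM. Of these 8 markers 6 were higher in replicate 2. Pitx1, a hindlimb gene chosen here after its values were seen, had 19.11 and 30.78 TPM, and Tbx5, a forelimb gene chosen likewise, had 16.04 and 12.02 TPM.

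Summed marker levels, which are not centred, were higher in replicate 1 for 10 of 13 cell type lists, and muscle fibre differed most. The 10 include the presomitic list, with no marker at a mean of 1 TPM. They also include the neural list, whose 2 markers at that level were both higher in replicate 2 after centring. The 8 muscle fibre markers summed to 5094 TPM in replicate 1 and 1419 TPM in replicate 2, with Acta1, skeletal actin, the highest at 2862.13 and 779.06 TPM, and all 8 were higher in replicate 1. The myoblast list summed to 383.5 and 188.3 TPM, with Myog, the myogenin gene, at 191.73 and 96.25 TPM. Hes6, known from differentiating myoblasts, was likewise higher in replicate 1, by 1.25-fold. Dll1, also known from muscle, was 1.26-fold higher in replicate 1, though its deposited intervals overlapped. Other members went the opposite way to the muscle lists. Of the 35 members with a mean of at least 1 TPM, 20 were higher in replicate 2, Hes1 by 1.08-fold and Notch2 by 1.14-fold among them. The part of muscle content in the differences of the members was not tested.

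Bone markers differed too, and cartilage, skin and other lists less. The 8 osteoblast markers summed to 777.4 and 409 TPM and all were higher in replicate 1, by a median log2 of -0.71, with Ibsp, a bone matrix gene, the highest at 388.26 and 226.32 TPM. The chondrocyte list summed to 1521 and 1573 TPM, with Col2a1, the cartilage collagen, at 688.61 and 731.3 TPM. The epidermal list summed to 7442 and 7486 TPM, with Krtdap at 2759.68 and 3091.09 TPM. Schwann cell markers summed to 38.48 and 33.95 TPM, with Erbb3 at 17.56 and 16.75 TPM, and macrophage markers to 171.9 and 152.1 TPM, with C1qb at 70.39 and 62.16 TPM. Jag1 and Notch2, which have known roles in bone, were both higher in replicate 2, opposite to the osteoblast list. The part of these cell types in the levels of the members was not tested.

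Vessel markers leaned towards replicate 1 by less. The 12 endothelial markers summed to 372.1 and 324.1 TPM, with 10 higher in replicate 1 and Eng, endoglin, the highest at 60.52 and 53.2 TPM. Arterial markers summed to 79.99 and 74.81 TPM, with Gja5 the highest at 24.29 and 20.99 TPM and 4 of 5 at 1 TPM or more higher in replicate 1. Among members known from endothelium, Dll4 was 1.10-fold, Hey2 1.20-fold and Notch4 1.78-fold higher in replicate 1. From counts the Notch4 difference was 1.14-fold. Jag1, Nrarp and Notch1, known from endothelium and from other cells, were higher in replicate 2, by 1.21-fold, 1.15-fold and 1.05-fold. For Notch1 the sign depended on the scaling. The 8 mural markers summed to 127.2 and 105.8 TPM and all were higher in replicate 1, with Pdgfrb, the receptor of pericytes, at 40.59 and 38.8 TPM. Heyl, known from smooth muscle, was higher in replicate 1, and Notch3, known from the same cells, was 1.07-fold higher in replicate 2. The part of vessel content in the levels of these members was not tested.

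**Figure D5:**
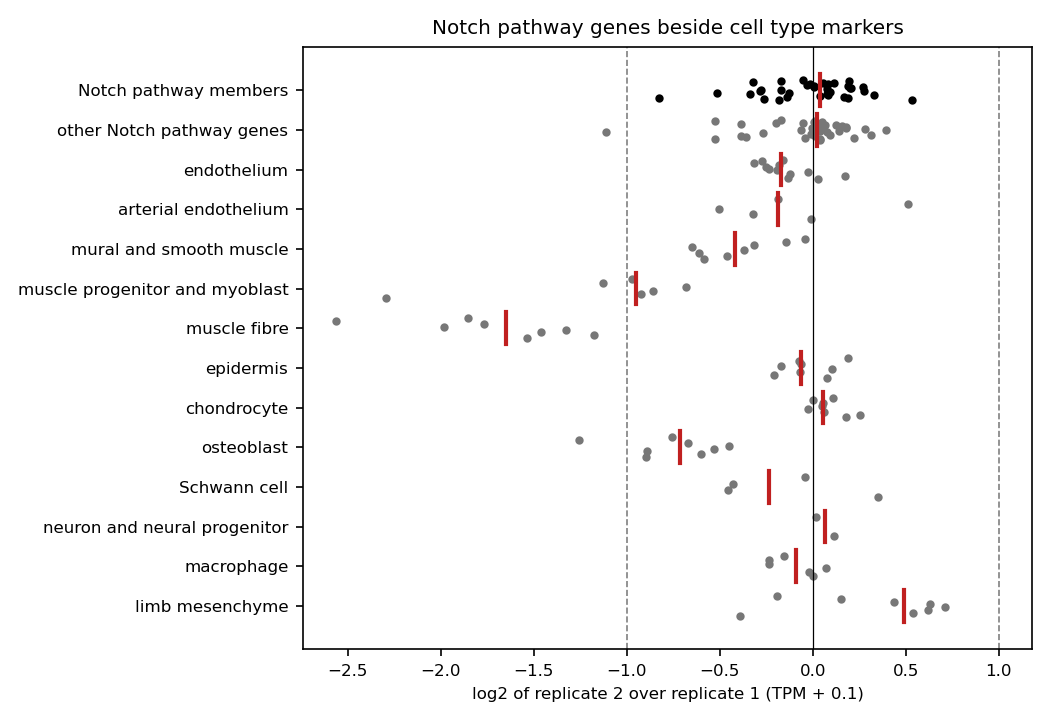
Log2 of replicate 2 over replicate 1 (TPM + 0.1) for the members (black) and for genes of each list (grey) with a mean of at least 1 TPM; red bars are medians and dashed lines mark 2-fold. The members centre near 0, whereas all 8 muscle fibre markers lie beyond 2-fold towards replicate 1.

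Outside the members, 40 further genes tied to the pathway were read from a list that was chosen with earlier results of these data known. Of these, 36 had a mean of at least 1 TPM, beside 15571 of the 43346 mouse gene rows. Among the 36, 14 were higher in replicate 1 and 22 in replicate 2, with a median difference of 0.02. The highest were Mfap2, a microfibril protein, with 901.23 and 788.86 TPM, and Dlk1, a Delta-like protein without the domain that binds Notch, with 728.46 and 497.33 TPM. Nedd4, a ubiquitin ligase, had 481.04 and 476.76 TPM, and Ctbp1, a corepressor, had 198.59 and 196 TPM. The lowest were Hes3, Hes2, Neurl1b and Chac1, all under 1 TPM, of which Hes3 was listed at 0 and 0.02 TPM. Only Ccn3, a secreted matrix protein, was over 2-fold apart, with 15.07 and 6.82 TPM, beside 3.63% of all genes with a mean of at least 1 TPM.

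Some members share exonic bases with a neighbour, and whether the authors' counting used strand is not stated in the sources used here. In GENCODE M21 this held for 16 members. Nrarp shared the largest part, 79.4% of its exonic bases, with Gm38287 on the opposite strand, which had 8.05 and 6.14 TPM. Hes5 shared 31.8% with Gm20421, at 0.09 and 0 TPM, and Dll1 shared 20.5% with A930024N18Rik, at 0.18 and 0.1 TPM. Highly expressed neighbours overlapped others: Ncstn shared 4.91% with Copa, a coat protein gene at 228.81 and 224.22 TPM, and Psenen shared 9.33% with U2af1l4, a splicing factor gene at 81.6 and 77.81 TPM. Adam17 shared 4.35% with Iah1, at 36.35 and 38.37 TPM. Reads over shared bases cannot be assigned to one gene with certainty, and the levels of these members are uncertain to that extent.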

How the data were processed

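Total RNA of 2 pools of mouse limb was sequenced, and for each library the authors deposited a gene table and a transcript table. Per the submitters' processing notes the assembly was mm10 and the annotation GENCODE M4; aligner and counter: not given in the sources used here. The units, per the file headers, are expected counts (estimated reads), TPM, FPKM and, for transcripts, percent of the gene. The deposited FPKM and percent values were used only as alternatives. Deposited intervals of TPM cover counting and read assignment, and their level is not stated in the file headers.

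Symbols, coordinates and models came from GENCODE M21 on GRCm38, matched on the gene identifier; 42462 of 43346 mouse gene rows had a symbol. Coding lengths are those of M21. Spike-ins and other rows, 2.28% and 2.26% of counts, were left out of the gene tables. A gene at 0 counts could have had up to 3 counts, or 0.0855 and 0.0718 CPM, which covers counting error only.

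Differences between pools used log2(TPM + 0.1), centred on the median gene, over genes with a mean of at least 1 TPM. A pair was called apart where the 2 libraries' ranges did not overlap and the deposited intervals did not overlap in either library. Expected counts were rounded for scaling by edgeR 4.0.16 and DESeq2 1.42.0 in R 4.3.3; other steps used Python 3.11.15 and pandas 2.3.3. The difference step was tested on simulated data.

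The members, gene lists, pairs and rule for names were chosen with earlier results of these data known. Named are all members, the 4 highest and 4 lowest other pathway genes and any over 2-fold apart, and of each marker list the highest gene and any listed at 0, besides overlapping genes and those said to be chosen otherwise.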

Additional observations from a re-analysis of the deposited data

How the results depend on the processing

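No member was over 2-fold apart under any of the 8 alternatives to the scaling, pseudocount or filter, and at 1.5-fold 1 member was, Notch4. The median difference of members ranged from -0.0045 without a filter on TPM to 0.0658 with posterior mean TPM. The median member level was 14.07 TPM over both libraries, and 14.39 TPM without replicate 1 and 15.21 TPM without replicate 2. Of the 25 pairs of genes, 19 were apart, and 19 to 23 were under the alternatives. The number of members led by 1 model at over 80% was 16, and 13 to 18 under the alternatives. Restriction to protein-coding models was chosen after seeing the data; it kept 34 members at 1 TPM or more. No paired analysis was possible because the series holds 1 group. With 12 to 30 counts per library for Dll3, Hes7 and Hes5, depth limits their levels.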
